A study of Mus musculus with 27 samples.

Results

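The regions described here are sites on the autosomes of mouse hematopoietic progenitor cells (HPC) where an H3K27ac peak of one age lay beside an H3K27me3 peak of the other age, and where the other age had no H3K27ac peak. They form 2 sets. Set a holds the adult H3K27ac peaks that lay within 2 kb of a fetal H3K27me3 peak and overlapped no fetal H3K27ac peak, and it has 933 members of 62383 adult H3K27ac peaks (1.50%). Set b is the same rule with the ages exchanged, and it has 407 members of 50285 fetal H3K27ac peaks (0.809%). Together they make 1340 regions of the 882051 autosomal peaks in the 8 peak lists of the study. The members were thus chosen by the measured peaks of the H3K27ac lists and of the H3K27me3 list of the other age, and values from these lists are given below as a description. The other lists, that is the 4 H3K4me1 lists and the H3K27me3 list of the same age, were not used by the rule.

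The study profiled histone marks by ChIPmentation, in which chromatin caught by an antibody is tagged with adapters by the Tn5 transposase before sequencing. The fetal groups were sorted from embryos at E16.5 and the adult groups at 8 weeks of age, all on the B6 background with no other allele or treatment given. H3K4me1 was profiled in hematopoietic stem cells (HSC, 3 fetal and 4 adult libraries) and in HPC (3 and 3), and H3K27ac in HPC (3 and 3). The last pair of lists, from 2 fetal and 3 adult HPC libraries, carries H3K27me3 in the sample titles but H3K27ac in the mark field, and is therefore written H3K27me3 (titles). Sort markers, organ of origin and number of animals per library are not given in the labels.

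Lysine 27 of histone H3 can carry either an acetyl group or methyl groups, but not both at once on the same tail. Trimethylation is placed by Polycomb repressive complex PRC2 and is known from silent promoters of developmental genes, often with many CpG dinucleotides. Acetylation marks active promoters and enhancers, and H3K4 monomethylation (H3K4me1) marks enhancers, active or not. In blood-forming cells the fetal programme, with RNA-binding proteins such as Lin28b and the Igf2bp family, is known to be shut down towards adulthood.

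The conflicting label was checked against genes of known state. Of 78 autosomal developmental regulators, 74 had an H3K27me3 (titles) peak in or within 1 kb of the gene at each age, whereas 2 had a fetal and 5 an adult H3K27ac peak there. Of 18 housekeeping genes, 0 had H3K27me3 (titles) and 18 had H3K27ac at each age. Overlap between the marks was rare: 245 of 53596 fetal (0.457%) and 7 of 47556 adult (0.0147%) H3K27me3 (titles) peaks overlapped H3K27ac of their own age. As a check of the cells, 543 adult and 386 fetal H3K27ac peaks were assigned to 21 HSC identity genes. For markers of other cells it was 75 and 52 at 12 endothelial, 59 and 37 at 16 T and NK cell, and 18 and 9 at 12 hepatocyte genes. It was 24 and 11 at 11 B cell, 25 and 21 at 12 macrophage, and 20 and 14 at 13 stroma genes. These counts are not adjusted for gene length or list size, and the purity of the cells was not tested. The H3K27me3 (titles) lists held weaker peaks than the others, with a median −log10 q of 2.31 in fetal and 1.38 in adult HPC, and a −log10 q of 5 or more at 13.2% and 1.20% of their peaks.

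The 3 promoter sequences that follow are examples from members of set a that lay on a gene start. Each is the 250 bases before a start recorded by RefSeq on GRCm38, 5′ to 3′ along the strand of the gene, and the capitals mark CpG dinucleotides, the sequence feature that Polycomb targets are known for. Cdkn2c encodes the cell cycle inhibitor p18, Cebpa the master transcription factor of granulocyte and monocyte precursors, and Tnfaip2 a protein induced by tumour necrosis factor.

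Cdkn2c, chr4:109666757-109667006, minus strand: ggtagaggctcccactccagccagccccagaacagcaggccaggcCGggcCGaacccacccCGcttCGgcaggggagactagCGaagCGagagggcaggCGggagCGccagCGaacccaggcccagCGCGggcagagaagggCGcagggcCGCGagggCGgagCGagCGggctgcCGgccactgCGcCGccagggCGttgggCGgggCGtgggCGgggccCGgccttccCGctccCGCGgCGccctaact
Cebpa, chr7:35119043-35119292, plus strand: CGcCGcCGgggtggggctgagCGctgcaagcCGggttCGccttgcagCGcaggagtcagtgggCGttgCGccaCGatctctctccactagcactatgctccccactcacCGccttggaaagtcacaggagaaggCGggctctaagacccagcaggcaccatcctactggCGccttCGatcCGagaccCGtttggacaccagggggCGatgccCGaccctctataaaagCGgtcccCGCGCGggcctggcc
Tnfaip2, chr12:111442411-111442660, plus strand: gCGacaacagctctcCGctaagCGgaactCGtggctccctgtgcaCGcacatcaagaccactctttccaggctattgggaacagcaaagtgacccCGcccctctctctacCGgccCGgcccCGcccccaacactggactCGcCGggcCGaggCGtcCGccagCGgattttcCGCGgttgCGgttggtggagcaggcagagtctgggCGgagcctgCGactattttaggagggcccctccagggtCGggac

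The promoters of set b are shown for 3 fetal RNA-binding proteins, whose members were among the 5 strongest of that set. Lin28b blocks maturation of let-7 microRNAs, and Igf2bp2 and Igf2bp3 bind and stabilise mRNAs.

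Lin28b, chr10:45470202-45470451, minus strand: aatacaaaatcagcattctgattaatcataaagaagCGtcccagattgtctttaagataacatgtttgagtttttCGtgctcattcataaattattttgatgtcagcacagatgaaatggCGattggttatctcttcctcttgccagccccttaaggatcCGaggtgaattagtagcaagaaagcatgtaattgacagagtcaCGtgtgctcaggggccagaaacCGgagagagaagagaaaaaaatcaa
Igf2bp2, chr16:22163300-22163549, minus strand: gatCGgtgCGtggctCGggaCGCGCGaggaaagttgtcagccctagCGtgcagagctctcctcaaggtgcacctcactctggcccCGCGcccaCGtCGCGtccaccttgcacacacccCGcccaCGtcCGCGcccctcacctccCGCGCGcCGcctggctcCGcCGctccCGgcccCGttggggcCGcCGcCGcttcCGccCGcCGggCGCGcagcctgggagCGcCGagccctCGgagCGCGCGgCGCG
Igf2bp3, chr6:49214955-49215204, minus strand: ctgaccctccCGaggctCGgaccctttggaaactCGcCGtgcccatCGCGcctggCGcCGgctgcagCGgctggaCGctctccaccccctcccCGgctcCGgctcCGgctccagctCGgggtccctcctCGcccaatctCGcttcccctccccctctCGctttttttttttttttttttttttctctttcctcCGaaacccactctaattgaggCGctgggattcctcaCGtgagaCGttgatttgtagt

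The Cdkn2c, Cebpa and Tnfaip2 sequences hold 29, 22 and 21 CpG in 250 bases. Those of Igf2bp2 and Igf2bp3 hold 40 and 21, and that of Lin28b holds 6. The ratio of observed to expected CpG, which corrects for the content of C and G, was 0.782, 0.801 and 0.785 at the 3 promoters of set a and 1.11, 1.00 and 0.631 at Igf2bp2, Igf2bp3 and Lin28b. A second recorded start of Cdkn2c, at 109665372, lay under the same member and inside the fetal H3K27me3 (titles) peak that this member overlapped. The 250 bases before that start hold 6 CpG, with a ratio of 0.525.

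Members of the sets sat differently to their H3K27me3 (titles) partner. In set a, 124 of 933 members (13.3%) overlapped the fetal peak, 518 lay up to 1000 bp away and 291 lay farther off, with a median gap of 608 bp. The H3K27ac summit fell inside the fetal peak at 19 members. In set b, 241 of 407 members (59.2%) overlapped the adult peak, 88 lay up to 1000 bp away and 78 lay farther off, and the summit fell inside it at 193. Most of set a thus flanked the other mark, while most of set b lay on it.

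The plot of sites by gap shows how far these distances reached. Among adult-only H3K27ac sites, 0.762% lay 1 to 500 bp from a fetal H3K27me3 (titles) peak, and this share was 0.270% in the first bin beyond the 2 kb limit. Among fetal-only sites, 1.22% overlapped an adult peak. Their bins from 1 to 2000 bp held 0.233%, 0.212%, 0.197% and 0.197%, close to the 0.202% in the first bin beyond the limit. H3K27ac sites found at both ages were less often that close: 1.57% of 25770 adult sites shared with fetal HPC lay within 2 kb, against 2.55% of 36613 adult-only sites. On the fetal side it was 0.544% of 30506 shared sites against 2.06% of 19779 fetal-only sites. By definition, shared sites overlap an H3K27ac peak of the age whose H3K27me3 (titles) is measured here. Since these marks rarely overlapped within an age, the classes are not alike in this comparison. The adult-only sites were 58.7% of the adult list and the fetal-only sites 39.3% of the fetal list. At the limit itself, the outermost members of set a had gaps of 1992 and 1993 bp and the first sites beyond it, at Hdac4 and Kank1, 2003 and 2004 bp. In set b the outermost gaps were 1966 and 1997 bp, and the next sites, at Reln and Pcsk6, both lay at 2013 bp.

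**Figure D1:**
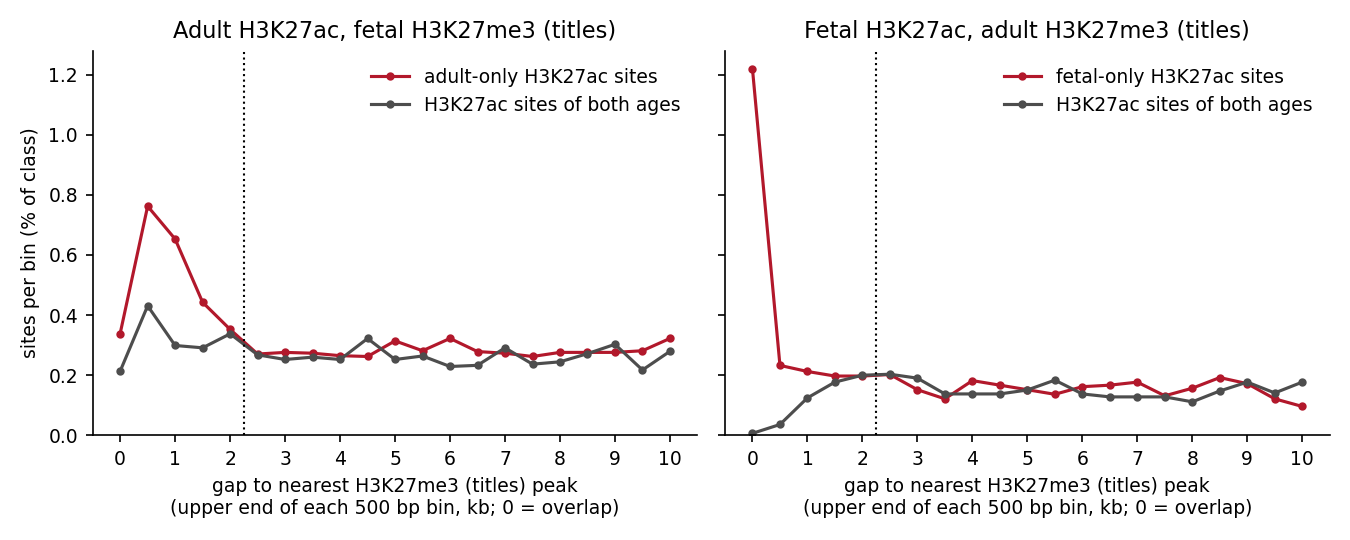
Share of H3K27ac sites (%, of each class) by gap to the nearest H3K27me3 (titles) peak of the other age, in 500 bp bins to 10 kb with overlap as the first point, for age-only sites and sites of both ages; the dotted line is the 2 kb limit. Adult-only sites peak at 1 to 500 bp (0.762%) and fetal-only sites at overlap (1.22%), and both classes meet near the limit.

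The acetylation of the sets also differed in size. Members of set a had a median width of 607 bp and a median fold over background of 3.19 (range 1.62 to 17.7), and 134 had a fold of 5 or more. Set b was narrower, with a median width of 290 bp and a median fold of 2.86 (range 1.72 to 14.3), and 8 members had a fold of 5 or more. Folds belong to their own list, so each is set against that list: the other adult-only sites had a median width of 466 bp and fold of 2.77, and the other fetal-only sites 331 bp and 2.93. Set a thus had a higher median width and fold than its background. Set b was narrower than its background, and its folds lay close to it, with a lower median and an upper quartile of 3.26 against 3.18. Sites of both ages were larger than either, at 1626 bp and 6.03 in the adult list and 899 bp and 4.10 in the fetal list. The partner peaks of set a had a median −log10 q of 2.73, with 171 at 5 or more, whereas those of set b had 1.38, with 7 at 5 or more. A partner with a −log10 q under 1.3 was found at 122 members of set a (13.1%) and 161 of set b (39.6%).

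The plot of fold against width shows that set b is made of many small peaks and a few large ones. Its 5 strongest members, at Lin28b (fold 14.3), Gnas (9.79), Igf2bp2 (9.71), Igf2bp3 (8.37) and Igf2bp1 (7.11), were between 2226 and 4107 bp wide. The next was at 5.10, and 215 of the 407 members were narrower than 300 bp. Set a had no such gap: its strongest members followed each other from 17.7 at Klf9 downwards.

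**Figure D2:**
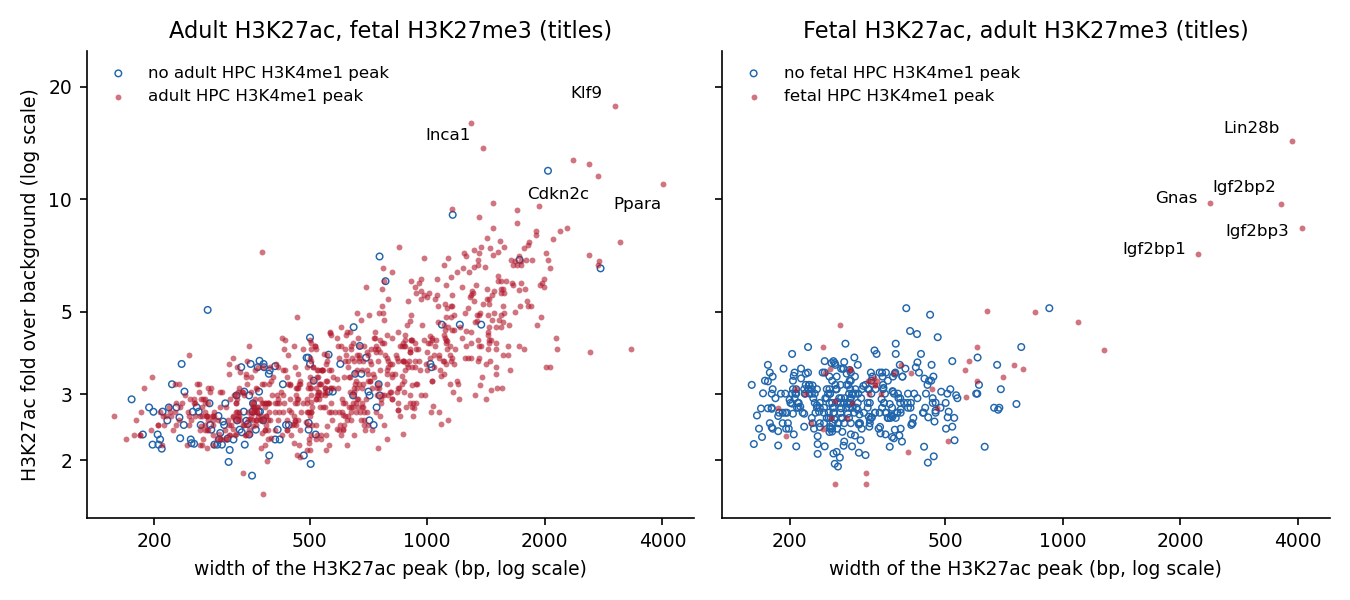
H3K27ac fold over background against peak width (bp), both on log scales, for each member of set a (left) and set b (right), filled where the HPC H3K4me1 list of the same age had a peak. In set b the 5 widest, strongest peaks stand apart from a cloud near 290 bp and fold 2.86, while set a runs without a break up to Klf9 at 17.7.

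H3K4me1 in set a followed age. In adult HPC, 817 of 933 members (87.6%, 95% Wilson interval 85.3 to 89.5) had an H3K4me1 peak, against 87.2% of all adult H3K27ac peaks and 79.7% of the other adult-only sites. In fetal HPC, 477 members (51.1%, 47.9 to 54.3) had one, against 80.5% of all adult H3K27ac peaks and 69.8% of the other adult-only sites. The fetal share of set a was therefore 18.7 percentage points lower than that of the other adult-only sites (Newcombe interval −21.9 to −15.5 for the difference of −18.7), and its adult share 7.89 points higher (5.58 to 9.90). At 348 members (37.3%) the adult HPC list alone had H3K4me1, against 12.9% of the other adult-only sites. HSC gave the same picture, with 44.5% of members in the fetal list (against 75.3% of all adult peaks and 61.6% of the others) and 81.6% in the adult list (against 81.8% and 71.5%).

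Adult-only sites were also split by fold into 3 classes of about equal size, at folds of 2.58 and 3.05. From the lowest to the highest class, 34.9%, 44.4% and 60.2% of members had fetal HPC H3K4me1, against 58.5%, 68.8% and 83.0% of the other sites (differences of −23.5, −24.3 and −22.8 points). Fetal H3K4me1 was thus more frequent at stronger sites, and less frequent in set a than in the other sites of each class. For adult HPC H3K4me1 the differences were 7.21 points (0.478 to 13.0), 8.00 points (3.06 to 11.8) and −1.00 points (−3.62 to 1.00), the last between 92.7% of members and 93.7% of the others. The change in these differences between classes was not tested. Members that overlapped the fetal H3K27me3 (titles) peak had fetal HPC H3K4me1 more often, at 82.3%. Where H3K4me1 had to cover 50% of the site, the share was 25.3%.

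Set b carried little H3K4me1 at any age. In fetal HPC, where these sites were acetylated, 51 of 407 members (12.5%, 9.66 to 16.1) had a peak, against 75.7% of all fetal H3K27ac peaks and 49.5% of the other fetal-only sites. In adult HPC it was 36 members (8.85%), against 70.9% and 33.1%. The differences from the other fetal-only sites were −37.0 points (−39.9 to −33.3) and −24.3 points (−26.8 to −21.1). In HSC 15.0% of members had fetal H3K4me1, against 75.5% of all fetal peaks and 51.7% of the others, and 9.58% had adult H3K4me1, against 69.4% and 32.1%. At 346 members (85.0%) neither HPC list had H3K4me1, against 49.7% of the other fetal-only sites.

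The few strong members of set b were the exception to this. Of the 8 with a fold of 5 or more, 6 had H3K4me1 in fetal HPC and 7 in adult HPC, and of the 43 members of 500 bp or more, 37.2% had it in adult HPC. Fetal-only sites were split by fold on their own, at 2.76 and 3.10, into 3 classes of unequal size. From the lowest to the highest class, 6.94%, 7.21% and 25.2% of members had fetal HPC H3K4me1. Each share was below the 44.2%, 49.3% and 56.6% of the other fetal-only sites. The plot of H3K4me1 shares shows both sets beside their backgrounds.

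**Figure D3:**
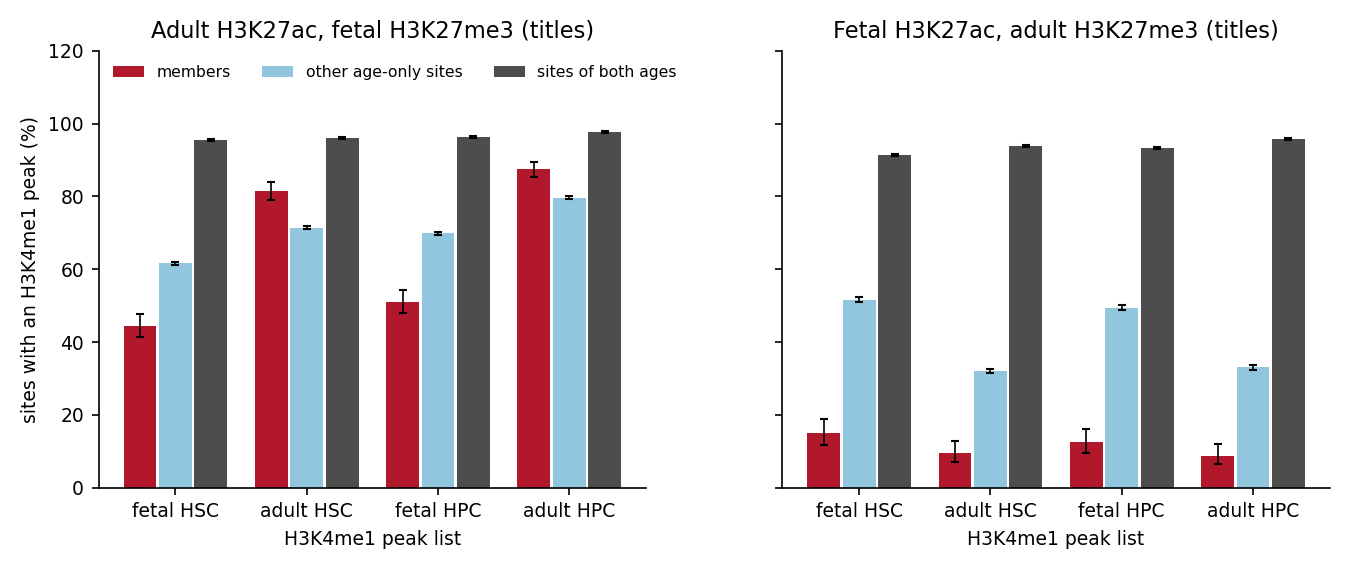
Share of H3K27ac sites (%) with an H3K4me1 peak in each of the 4 H3K4me1 lists, for members, other age-only sites and sites of both ages; bars show 95% Wilson intervals, which cover counting error only. Members of set a (left) fall from 87.6% in adult HPC to 51.1% in fetal HPC, and members of set b (right) stay at or below 15.0% in all 4 lists.

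H3K27me3 (titles) of the same age as the acetylation was often close too. In set a, 274 members (29.4%, 26.5 to 32.4) lay within 2 kb of an adult H3K27me3 (titles) peak, against 0.769% of all adult H3K27ac peaks and 0.104% of the other adult-only sites, which by rule lay away from the fetal peaks. Adult sites shared with fetal HPC that lay within 2 kb of a fetal peak gave the nearer comparison, and there 29.4% of 405 had an adult peak within 2 kb, a difference of −0.0151 points (−5.43 to 5.17). Direct overlap with the adult peak was seen at 4 members. At 659 members of set a (70.6%) no adult H3K27me3 (titles) peak lay within 2 kb, and at 527 none lay within 10 kb.

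In set b, 169 members (41.5%, 36.8 to 46.4) lay within 2 kb of a fetal H3K27me3 (titles) peak, against 1.49% of all fetal H3K27ac peaks, 0.991% of the other fetal-only sites and 67.5% of the 166 shared sites near an adult peak. Overlap was more frequent in set b than in these classes, as 104 members (25.6%) overlapped a fetal H3K27me3 (titles) peak. It was 0.604% for the other fetal-only sites and 5.42% for the shared sites near an adult peak. The classes are not alike here, since 241 members but only 2 shared sites overlapped an adult peak. The other fetal-only sites lay away from adult peaks by rule. The part this plays was not tested. In the 104 members the fetal lists had both marks called on the same bases. The 6 members on the strongest adult peaks all belonged to them. They included an intragenic site of the potassium channel gene Kcnh1 (302 bp, fold 2.65, on an adult peak with −log10 q of 9.34) and sites in the deubiquitinase gene Otud7a, the collagen gene Col5a1, the inner ear gene Otog and the desmosome gene Pkp1.

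At a −log10 q of 5 or more for H3K27me3 (titles), set a kept 234 members and set b 8, and the share with same-age H3K27me3 (titles) was 2.56% in set a and 62.5% in set b. At that threshold the adult list holds 570 autosomal peaks and the fetal list 7071, and the part this plays in the difference between the sets was not tested.

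Gene starts separated the sets further. Of the 906 members of set a on the 18 autosomes with recorded starts, 383 (42.3%, 39.1 to 45.5) lay within 1 kb of the start of a protein-coding gene, against 15.8% of all adult H3K27ac peaks and 4.77% of the other adult-only sites. Adult sites of both ages near a fetal H3K27me3 (titles) peak were at 62.8%. In set b it was 22 of 398 members (5.53%, 3.68 to 8.23), against 18.1% of all fetal peaks, 1.04% of the other fetal-only sites and 61.0% of the shared sites near an adult peak. A start was recorded for 79.5% of the 20665 coding autosomal genes, so these shares are lower limits for every class.

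Position relative to gene bodies was taken over all members, those at starts included. In set a 74.3% of members lay inside a coding gene, against 66.7% of all adult peaks, 61.3% of the other adult-only sites, 74.0% of sites of both ages and 84.0% of those near a fetal H3K27me3 (titles) peak. No coding gene lay within 100 kb of 33 members (3.54%), against 6.56%, 4.33% and 0.741% of the last 3 classes. In set b 42.5% lay inside a gene, against 71.0% of all fetal peaks and 69.5% of the other fetal-only sites, and 93 members (22.9%) had none within 100 kb, against 11.6% of the others. Exons, introns and UTRs were not analysed here.

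**Figure D4:**
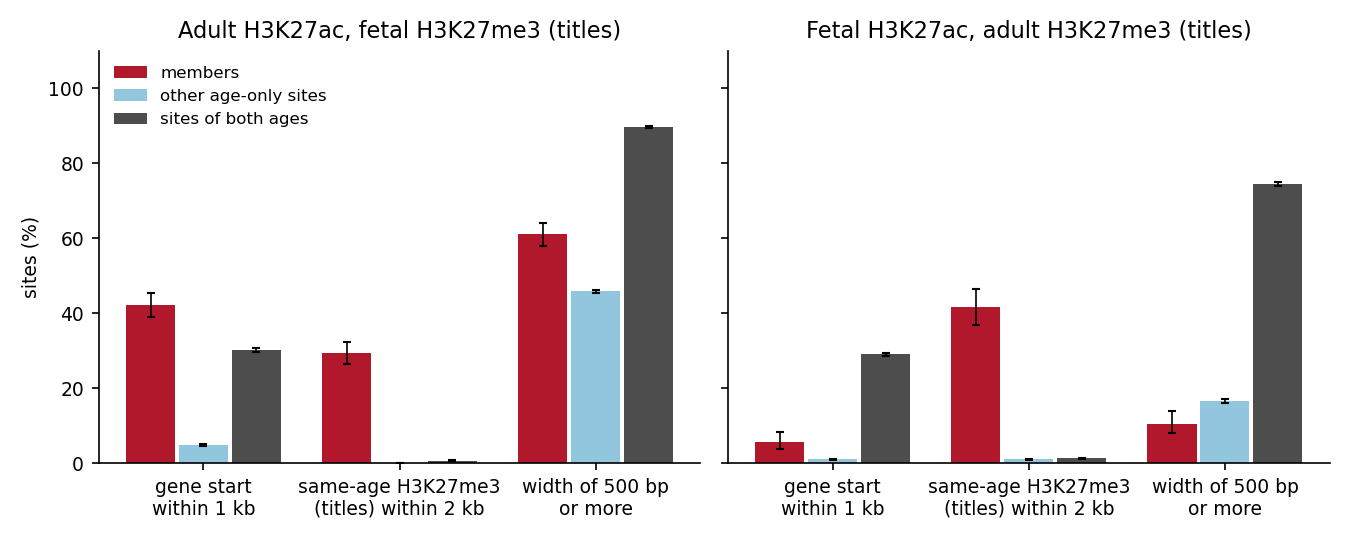
Share of H3K27ac sites (%) with a recorded coding gene start within 1 kb, with H3K27me3 (titles) of the same age within 2 kb, and with a width of 500 bp or more, for members, other age-only sites and sites of both ages of set a (left) and set b (right), with 95% Wilson intervals (counting error only). A start lay near 42.3% of set a and 5.53% of set b, and same-age H3K27me3 (titles) near 29.4% and 41.5%.

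Members of set a at starts had more acetylation and less fetal H3K4me1 than the rest of the set. Their median fold was 3.55 and width 749 bp, against 2.98 and 510 bp for the 523 members farther off. Fetal HPC H3K4me1 was called on 45.2% of them (40.3 to 50.2) and on 55.1% (50.8 to 59.3) of the members farther off. H3K4me1 in the adult HPC list alone was seen at 44.6% of them (39.7 to 49.7) and at 32.1% (28.3 to 36.2) of the members farther off. Over 265 pairs of a start and a member that covered it, the nearest fetal peak lay over the start in 3, before it in 114 and on the side of the gene body in 148.

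Promoter windows under set a were rich in CpG. Members overlapped 310 RefSeq windows of 300 bases (250 before to 50 after a start) of 282 genes, and their median ratio of observed to expected CpG was 0.811, against 0.585 over all 20063 windows. The ratio was over 0.6 in 82.6% of the member windows (78.0 to 86.4), 48.9% of all windows, 50.6% of windows under other adult-only sites and 78.3% of those under shared sites. Windows under fetal H3K27me3 (titles) without adult H3K27ac stood at 23.7% of 410. Set b overlapped 8 windows of 7 genes (Flrt3, Igf2bp2, Igf2bp3, Lin28b, Mpp2, Ocln and Olfr160), and 6 of the 8 were over 0.6.

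Short motifs were counted in these windows on both strands. The SP/KLF motif GGGGCGGGG, itself made of G and C with a CpG, was in 30.0% of the set a windows, 15.7% of all windows and 22.7% of windows under sites of both ages. The GATA motif AGATAA was in 2.58% (1.31 to 5.01), against 9.57% and 5.68%, and the ETS motif AGGAAGT in 3.23% (1.76 to 5.84), against 9.09% and 9.35%. The RUNX motif TGTGGT was in 8.39%, against 14.8% and 12.2%, and the C/EBP motif TTGCNNAA in 5.16% (3.20 to 8.22), against 10.3% and 7.88%. These blood cell motifs were scarcer in set a than in all windows, but the C/EBP share under sites of both ages lay inside the interval of set a. The AP-1 motif TGANTCA stood at 5.16%, between 7.06% of all windows and 4.30% of those under sites of both ages. No motif contains another of the 6. The windows of set a hold more G and C than all windows (median 67.2% against 57.0%), and the part this plays in the motif shares was not tested.

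The members of set a were assigned to 733 nearest coding genes (3.55% of 20665), 606 of which had 1 member. A further 101 had 2 and 26 had 3 or more, and members within 10 kb of each other merged into 793 loci. Irs2, the insulin receptor substrate, had 7 members, 6 of them outside the gene at 17366 to 82888 bp. Myo16, a myosin gene that neighbours it on chromosome 8, had 6, all inside the gene, the strongest at fold 5.60 (1308 bp). Samd4, an RNA-binding translational regulator, had 5, among them a peak of fold 5.75 over its start. Hivep3, a zinc finger transcription factor, had 4, of which the strongest (fold 8.23, 1895 bp) lay 979 bp from the start. The progesterone receptor gene Pgr also had 4, at folds of 2.41 to 3.97, and none of them had H3K4me1 in fetal HSC or HPC. Spsb4, Rtn4rl2 and Grik4 had 4 as well, and Gabbr1, Nfia, Gm8909 and Ptpn3 had 3.

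The strongest acetylation of set a lay 4473 bp from Klf9, a Krüppel-like transcription factor. This peak, chr19:23133734-23136753, had a fold of 17.7 and lay 285 bp from a fetal H3K27me3 (titles) peak of 1187 bp, and H3K4me1 was called on it in all 4 lists. The start of Klf9 was acetylated at both ages and is therefore no member, with a peak of fold 21.9 (2834 bp) in the adult and of fold 4.69 (1290 bp) in the fetal list. A second fetal H3K27me3 (titles) peak, of 347 bp, overlapped that adult peak. At Cdkn2c the member chr4:109664981-109667713 (fold 11.6, 2733 bp) covered the start, and it overlapped a fetal H3K27me3 (titles) peak of 7759 bp that ran into the gene (−log10 q 14.3). No adult H3K27me3 (titles) peak lay within 20 kb of that start, against 3 fetal ones that covered 13331 bp.

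Other strong members of set a lay on starts. They included Syde2, a GTPase activating protein (fold 12.8), the start of the kinesin gene Kif1c inside Inca1 (13.7) and Fndc3b, a regulator of fat cell differentiation (11.9, with H3K4me1 in both HSC lists and in no HPC list). One at Ntng2, a netrin (12.4), lay 3242 bp from the start. A peak of 4022 bp and fold 11.0 lay 62380 bp from Ppara, the fatty acid receptor. The peak at H2-Q6 (16.0) belongs to a family of near-identical major histocompatibility genes, and its reads could come from a copy. The strongest fetal peaks that set a overlapped lay at Dhx40, an RNA helicase gene (−log10 q 18.9), Cdkn2c (14.3), Nfia, a transcription factor of the NFI family (14.3), Ppp3cc, a calcineurin subunit (13.6), Bnc2, a zinc finger protein (12.9) and Atoh7, a bHLH transcription factor of the retina (10.1).

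Genes of blood cell function in set a included 3 myeloid genes and 1 inflammatory gene. Of 21 myeloid genes, 3 had members (14.3%, against 3.55% of all genes): Cebpa with 2, the endotoxin receptor gene Cd14 with 1 and the cathepsin gene Ctsg with 1. By peaks the myeloid list had 4 members among 126 adult-only H3K27ac peaks, where 2.55% of all adult-only peaks were members. The Cebpa members, of 1682 bp (fold 6.81) and 1295 bp (fold 3.76), lay over the start and 288 bp before it. Within 20 kb of that start the adult list had 9 H3K27ac peaks and the fetal list 0. The fetal H3K27me3 (titles) list had 2 peaks there and the adult one 0. Tnfaip2 was the only one of 16 inflammatory genes (6.25%, against 3.55% of all genes). It had 2 members, among the 63 adult-only H3K27ac peaks of that list, the larger at fold 9.58 over its start. Its locus held 5 adult and 0 fetal H3K27ac peaks within 20 kb. Its fetal partner was a single peak of 414 bp with a −log10 q of 1.15, the only one within 20 kb.

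Of 20 interferon and antigen presentation genes, 2 had members (10.0%, against 3.55% of all genes). By peaks this list had 3 members among 57 adult-only H3K27ac peaks, where 2.55% of all adult-only peaks were members. Ciita, the master activator of MHC class II genes, had 2 of folds 2.70 and 2.20, both with adult and without fetal H3K4me1, and the class II gene H2-Ab1 had 1. Of 21 HSC identity genes, 2 had members (9.52%). By peaks the list was not high, with 3 members among its 353 adult-only H3K27ac peaks. Of the 2 genes, Gata2, a stem cell GATA factor, had 1 member (fold 5.46, over the start). None of 17 lymphoid and 15 erythroid and megakaryocyte genes had a member of set a, which at 3.55% of all genes is near the background for lists of this size.

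Signalling and stimulus genes were a further group. Of 23 immediate early genes, which respond to stimuli without new protein synthesis, 5 had members (21.7% of the list, against 3.55% of all genes): Egr3 with 3, Atf3 and Nr4a3 with 2, Egr2 and Klf9 with 1. The Atf3 member over the start had a fold of 4.97, lay 354 bp from a fetal H3K27me3 (titles) peak of 3238 bp, and had H3K4me1 in adult but not in fetal HPC. Of 52 genes of the Wnt, Notch, Hedgehog and BMP pathways, 8 had members (15.4%, with 206 adult H3K27ac peaks on the list): the ligand genes Wnt10a (3), Bmp2, Dll1, Wnt10b and Wnt9a, the receptor gene Ptch1, and the transcription factor genes Hes1 (2) and Lef1. Hes1, a Notch target, had the 2 members at folds of 5.75 and 4.68, both with H3K4me1 in all 4 lists. These lists were chosen with earlier results of these data known, and their genes differ in length and in number of H3K27ac peaks.

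Developmental regulators are the textbook targets of Polycomb. Of 78 such genes, 74 of which had fetal H3K27me3 (titles), 7 had members (8.97%, against 3.55% of all genes), among them Tbx4 (2), Emx2, Gsc and Nkx2-2. The rule needs a fetal H3K27me3 (titles) peak close by, and only 4432 of all 20665 genes had one, so the 2 shares are not alike. The highest fold among the regulators named was 4.90, at a site 75716 bp from Emx2. Of 28 genes on the list of the Polycomb machinery, 3 had members (10.7%, against 3.55% of all genes). They included Bmi1 and Cbx8, which encode subunits of PRC1, with 1 member each. Of 18 cell cycle genes, 2 had members (11.1%, against 3.55% of all genes), the inhibitor gene Cdkn2c and its relative Cdkn2b. The Cdkn2b member lay 57273 bp from the gene (fold 5.39). By peaks the Polycomb machinery list had 3 members among 58 adult-only H3K27ac peaks and the cell cycle list 2 among 68. Of all adult-only peaks, 2.55% were members.

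Set b members were assigned to 270 genes (1.31% of 20665), 236 of which had 1. Igf2bp3 led with 5 members and Rbms3, a gene for an RNA-binding protein, had 4. Lin28b, Fras1 (an extracellular matrix protein), Thbs2 (thrombospondin), Pmfbp1 and Timd2 (a T cell immunoglobulin and mucin protein) had 3, and Asxl3, Rims4, Cecr2, Anks1b and Nav2 had 2. The members at Rbms3, Fras1, Thbs2, Pmfbp1 and Timd2 had H3K4me1 in none of the 4 lists, and were 176 to 695 bp wide. Igf2bp3 and Lin28b differed from these by large peaks on the start and by H3K4me1.

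Of 10 autosomal genes of the fetal stem cell programme, 4 had members of set b (40.0%, against 1.31% of all genes), with 10 in all. None had a member of set a, which at 3.55% of all genes is near the background for a list of this size. At Lin28b the member chr10:45467081-45470948 covered the recorded start with a fold of 14.3 over 3868 bp. Further members of folds 4.02 (244 bp) and 3.93 (1279 bp) lay 3299 and 15031 bp from that start. The recorded start lies inside the gene body, and the member of 1279 bp covered the 5′ end of that body, at 45486314. Within 20 kb of the start the adult list had 0 H3K27ac peaks. The adult H3K27me3 (titles) list had 16 peaks there, covering 8419 bp, against 3 fetal ones covering 2611 bp. The fetal peaks were fewer but had higher −log10 q in their own list, at 3.67, 5.51 and 3.20, while the adult ones reached 2.16. The member at 15031 bp lay 589 bp from the nearest of these fetal peaks. H3K4me1 was called at both ages, with 14 fetal and 3 adult HPC peaks.

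The Igf2bp genes also had adult H3K27me3 (titles) beside fetal acetylation. The Igf2bp3 member chr6:49213840-49217946 (fold 8.37) covered the start, and 4 smaller members lay within 3782 bp of it. Within 20 kb the adult H3K27me3 (titles) list had 5 peaks covering 3763 bp and the fetal list 0. Unlike at Lin28b, the adult H3K27ac list still had 2 peaks there, inside the gene. At Igf2bp2 1 member, chr16:22160527-22164143 (fold 9.71), covered the start, with 5 adult and 0 fetal H3K27me3 (titles) peaks and 0 adult H3K27ac peaks within 20 kb. The member at Igf2bp1 lay inside the gene (fold 7.11, 2226 bp) with 10 adult H3K27me3 (titles) peaks within 10 kb. All of these large members had H3K4me1 in all 4 lists.

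**Figure D5:**
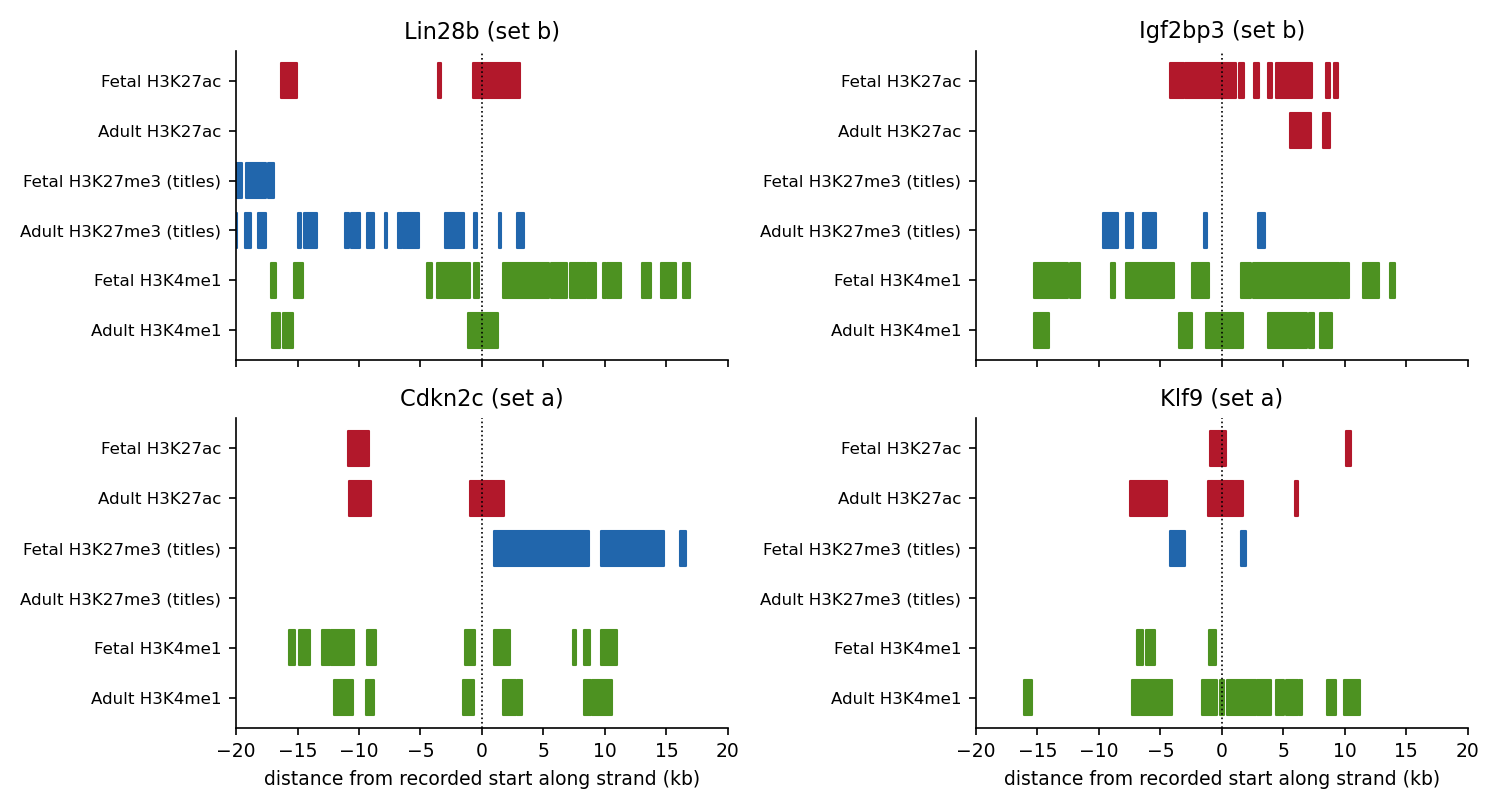
Peaks of the HPC lists within 20 kb of the recorded start (distance 0, dotted line) of Lin28b and Igf2bp3 (set b) and of Cdkn2c and Klf9 (set a), by distance along the strand of the gene in kb; bars show the extent of each peak, and each row is 1 list. Around Lin28b 16 adult H3K27me3 (titles) peaks face 0 adult H3K27ac peaks, and at Cdkn2c 3 fetal H3K27me3 (titles) peaks lie on the side of the gene beside the adult-only H3K27ac peak at the start.

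The adult H3K27me3 (titles) peaks at these genes lay on both sides of the median of their own list. The nearest ones to the large members had a −log10 q of 1.10 at Lin28b, 2.44 at Igf2bp2, 0.777 at Igf2bp3 and 1.10 at Igf2bp1, against a median of 1.38 over that list. Within 20 kb of the start the strongest reached 2.16 at Lin28b, 2.74 at Igf2bp2 and 3.00 at Igf2bp3. Gnas, an imprinted gene for a G protein subunit, had a member of fold 9.79 and 2388 bp. It lay over an adult peak of 249 bp (−log10 q 2.16). Gnas was the only one of 15 imprinted genes in set b (6.67%, against 1.31% of all genes). In set a the only gene of that list was Rasgrf1, a Ras exchange factor with 2 members (6.67%, against 3.55% of all genes).

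The other lists had few members in set b. Of 78 developmental regulators, 2 had members (2.56%, against 1.31% of all genes), Emx2 among them. Adult H3K27me3 (titles), which the rule needs close by, was at 74 of these regulators but at 3346 of all 20665 genes. Gli2 and Sfrp1 were the only 2 of 52 signalling genes (3.85%). Rora was the only one of 17 lymphoid genes (5.88%), at 64391 bp. No Hox, myeloid, HSC identity, interferon or immediate early gene had a member, which at 1.31% of all genes is near the background for lists of this size. Of the markers of other cells, 1 of 13 stroma genes, the leptin receptor gene Lepr, had a member in set b (7.69%). The hepatocyte, endothelial, B cell, T and NK cell and macrophage markers had 0 in both sets, again near the background for such short lists.

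Members of both sets were found at 16 genes, at different sites. Set a had members at 733 (3.55%) and set b at 270 (1.31%) of the 20665 coding autosomal genes. Whether 16 exceeds what these shares give was not tested. Genes with many peaks are among the 16, such as Nav2 with 25 adult H3K27ac peaks. Nav2, a neuron navigator gene, had 3 of set a and 2 of set b, and Slco5a1, Pde4dip and Tshz2 each had 3. At Emx2 the adult-acetylated site (fold 4.90, 1546 bp) lay 75716 bp and the fetal-acetylated one (fold 2.76, 245 bp) 66592 bp from the gene.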

How the data were processed

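The authors deposited 1 MACS2 peak list per group, pooled over its libraries, with reads aligned by Novoalign to mm10 (GRCm38), per the submitters' processing notes; versions, the filter of the lists and the use of the 3 input libraries are not stated there. Each deposited peak carries a fold (ratio) over background, a −log10 p and a −log10 q value, a display score and a summit offset (other); these belong to the peak and its own list. They were used to describe, rank or filter peaks within a list. The display score was not used. Read depth is unknown.

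A member met the rule given above, with an overlap of 1 bp or more counted as shared, on 19 autosomes. Other age-only sites are the age-only H3K27ac peaks that are not members. Shares have 95% Wilson intervals and differences have 95% Newcombe intervals. With lists pooled over libraries no spread between replicates can be measured, so no test was run, and the intervals cover counting error only. A missing peak is not a missing mark, since calling depends on depth.

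Sites went to the nearest coding gene of RefSeq (GRCm38) within 100 kb of its body. Starts and promoter windows came from RefSeq tables, in which chromosome 18 had no entry used here. Of 463 listed gene names, 455 were found on the autosomes. Genes were named by a rule: those with the most members, the strongest members, the members on the strongest H3K27me3 (titles) peaks, genes in both sets, up to 4 genes per list, and sites at the 2 kb limit; further list genes and Ocln, Olfr160 and Flrt3, named to complete small counts, were picked with their values in view. The members and the 21 gene lists were chosen with earlier results of these data known. Python 3.11.15, numpy 2.4.6, pandas 2.3.3 and statsmodels 0.14.6 were used, and the interval code was tested on simulated data. Results on some listed genes are not reported here.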

Additional observations from a re-analysis of the deposited data

How the results depend on the processing

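The number of set a members was 124 where overlap with H3K27me3 (titles) was required, 1541 within 5 kb, 234 with H3K27me3 (titles) peaks of −log10 q of at least 5, 526 with the strongest 20000 of these peaks, 198 from the strongest 20000 H3K27ac peaks and 570 for members of 500 bp or more. For set b the same settings, except the 5 kb one, gave 241, 8, 205, 37 and 43, and 238 members had no same-age H3K27me3 (titles) peak. The share of set a with a same-age peak was 34.0% within 1 kb, 18.3% within 5 kb, 2.56% at the q threshold, 24.9% with the strongest 20000 and 23.2% from the strongest H3K27ac peaks. For set b it was 46.5% with overlap, 31.8% within 5 kb, 62.5% at the q threshold, 30.2% with the strongest 20000 and 30.2% for wide members. Fetal HPC H3K4me1 in set a stood at 82.3% with overlap, 55.5% within 5 kb, 45.3% at the q threshold, 70.2% from the strongest H3K27ac peaks, 54.5% with H3K27ac lists of equal length, 25.3% where it covered 50% of the site, 56.3% without same-age H3K27me3 (titles) and 60.9% for wide members. Adult HPC H3K4me1 in set b stood at 4.98% with overlap, 0% (of 8) at the q threshold, 29.7% from the strongest H3K27ac peaks and 37.2% for wide members. Gene starts near set a were at 48.7% with overlap, 46.9% within 1 kb, 29.7% within 5 kb, 47.6% at the q threshold, 47.3% with the strongest 20000, 57.1% from the strongest H3K27ac peaks, 46.0% with lists of equal length and 50.2% for wide members. Those near set b were at 0% (of 8) at the q threshold, 16.7% from the strongest H3K27ac peaks, 3.42% without same-age H3K27me3 (titles) and 17.5% for wide members. The causes were not tested beyond the change of members that each setting makes.

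The restrictions to wide members and to members without same-age H3K27me3 (titles), the gene start results, the comparisons within 3 classes of fold and the comparison with shared sites near H3K27me3 (titles) were added after seeing the data. No paired analysis was possible because each group has 1 pooled list and no value per replicate. For the same reason leaving out replicates was not run. Depth is unknown, and a site absent from a list is not shown to lack the mark.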

Other observations

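The X chromosome, which the rule left out, held 6736 peaks (12.4%) of the adult and 743 (1.37%) of the fetal H3K27me3 (titles) list, against 720 (1.14%) of the adult and 569 (1.12%) of the fetal H3K27ac list. Applied to the X chromosome, the rule found 7 of 720 adult H3K27ac peaks (0.972%) and 7 of 569 fetal ones (1.23%). Among the autosomes, chromosome 8 had the highest share of members in both sets, 1.84% of its adult and 1.48% of its fetal H3K27ac peaks. The lowest shares were on chromosome 10 in set a (1.19%) and on chromosome 17 in set b (0.307%).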
